A study of Mus musculus with 10 samples.

Results

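The genes described here serve transmission by GABA and glycine, the inhibitory neurotransmitters of the adult brain and spinal cord. They were 27 genes, listed by symbol for their role in this transmission and all measured, among the 19938 named genes of an Affymetrix whole-transcript array. A gene was represented by the probe set that carried its symbol alone, and by the brightest one where several did, which applied only to Gabrb2. Total RNA came from mouse neurons labelled as terminally differentiated, of strain 129Sv-C57Bl/6, that received the JNK inhibitor SP600125 (JNK being the kinase family named for its target JUN) at 25 µM in 3 doses spaced 2 hours apart, or the solvent DMSO on the same schedule. Each group held 5 arrays, 1 for each biological replicate from a to e. The labels gave each sample, DMSO samples included, a batch of its agent, called drug batch here, which was 1 for a and b and 2 for c to e, and no other treatment or allele was labelled in either group. The source of the neurons is not given in the sources used here, and nothing labelled the replicates as separate cultures, so p-values measure only sample-to-sample spread, which may be partly technical.

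GABA is made from glutamate by the glutamic acid decarboxylases Gad1 and Gad2, and both GABA and glycine are loaded into synaptic vesicles by the transporter Slc32a1. They open chloride channels assembled from GABA-A or glycine receptor subunits, which the scaffold gephyrin anchors at the synapse, and GABA also acts on the G protein-coupled GABA-B receptor. Transporters in neurons and in astrocytes end the signal, and the chloride cotransporters Slc12a2 and Slc12a5 set the chloride gradient that decides whether the channels inhibit or excite.

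The deposited values are on a log2 scale, so a difference of 1 is a doubling. All changes below are SP600125 minus DMSO from limma with a term for drug batch, and a gene was called at a Benjamini-Hochberg adjusted p under 0.05 over all 19938 genes. Of the 27 genes, 21 fell, 1 rose and 5 did not pass. Over all genes tested, 29.9% fell and 17.0% rose by the same test, 46.9% in all. The median change of the 27 genes was −0.42 against −0.03 over all genes. Brighter genes fell more often on these arrays, and the range of values was narrower after SP600125: the SD over all genes within an array was 1.63 to 1.71 on the SP600125 arrays and 1.76 to 1.84 on the DMSO arrays. The part of this difference in the changes was not tested, and the changes after quantile normalization, which evens it out, and cyclic loess are given below. A level above the 95th percentile of 1027 olfactory receptor genes, a log2 value of 5.42, was taken as above background, and 47.3% of the 12055 genes above it fell and 7.93% rose, with a median change of −0.16. Of the 24 GABA and glycine genes above it, 19 fell and 1 rose. A fall of at least 1.5-fold was called for 8 of the 27 genes and for 1.38% of all genes. That count depended on the scaling and on single arrays. It was 2 after cyclic loess (0.557% of all genes) and 3 after quantile normalization (0.787%), 4 without SP600125 replicate a (1.09%), 12 without SP600125 replicate b (2.69%) and 12 without both b arrays (3.22%).

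**Figure D1:**
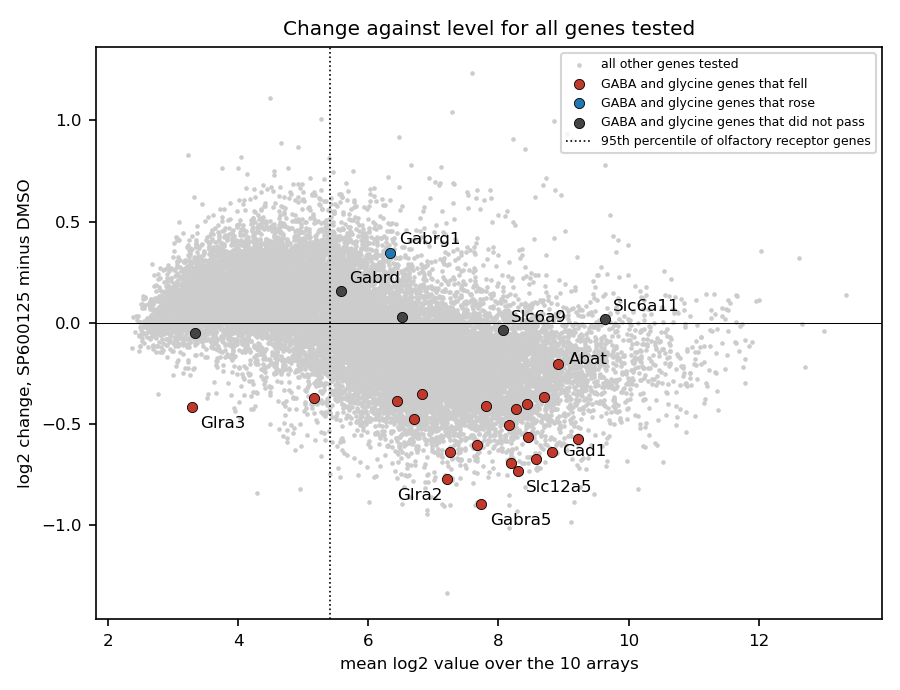
The log2 change after SP600125 (SP600125 minus DMSO, vertical axis) is plotted against the mean log2 value over the 10 arrays (horizontal axis), with 1 grey point for each gene tested and larger points for the 27 GABA and glycine genes. The 21 genes that fell lie below 0 at levels from 3.29 to 9.22, Gabrg1 lies above 0, and the dotted line marks the background level of 5.42.

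The b arrays stood apart from the others of their group. Of the 21 genes that fell, all were lower on SP600125 replicate a than on DMSO replicate a, but on the b arrays 17 were higher after SP600125 than after DMSO. The median difference of the 27 genes was 0.14 between the b arrays and −0.57 between the a arrays, while over all genes 48.8% were lower after SP600125 on the b arrays and 50.5% on the a arrays. The mean of the 27 genes was 7.01, 7.49, 7.22, 7.10 and 7.16 on SP600125 replicates a to e, against 7.59, 7.38, 7.66, 7.66 and 7.66 on DMSO replicates a to e. Markers of neurons in general moved in the same way. Their mean, over 12 genes such as Tubb3, Map2 and Syn1, was 8.57, 9.16, 8.69, 8.60 and 8.68 on SP600125 replicates a to e, against 9.31, 8.95, 9.30, 9.30 and 9.31 on DMSO replicates a to e, and on the b arrays 11 of the 12 were higher after SP600125. The means of the 9 neural progenitor markers kept the order of the other arrays on the b arrays too, with 8.06 after SP600125 and 8.41 after DMSO. Over all arrays the median change of these 9 markers was −0.02. The difference between the group means of this list came mostly from Nes (−1.34) and Mki67 (−0.44). Without both b arrays 21 of the 27 genes fell and 1 rose, against 31.6% and 17.1% of all genes. The median change there was −0.52 for the 27 genes and −0.03 over all genes. In drug batch 1 alone, with 2 arrays a group, none of the 27 genes was called by limma, and 1 of all 19938 genes was. At an unadjusted p under 0.05 limma picked 4 of the 27 genes there and 24.6% of all genes. The changes in the 2 batches are given at the end of the results.

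**Figure D2:**
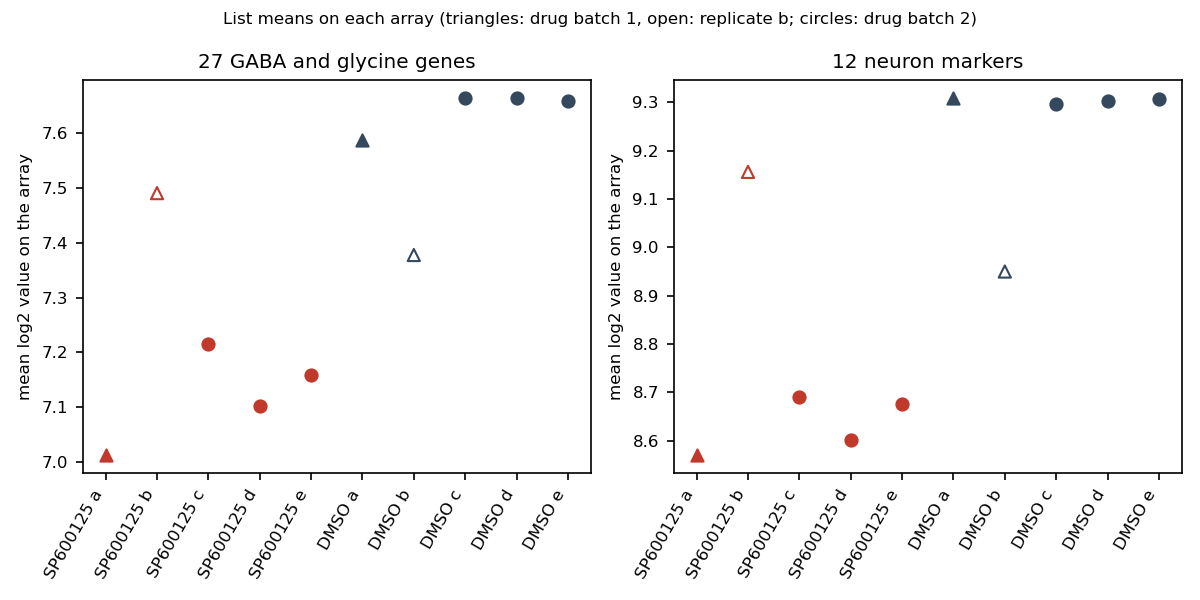
Each point is the mean log2 value on 1 array (vertical axis) of the 27 GABA and glycine genes (left) or of the 12 neuron markers (right), with the SP600125 arrays left of the DMSO arrays. In both panels SP600125 replicate b lies above DMSO replicate b, while the other SP600125 arrays lie below every DMSO array.

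Of the 12 neuron markers, 11 fell and 1 did not pass, and all 12 were above background. Of 10 astrocyte markers 1 rose, 5 fell and 4 did not pass (3 rose and 3 fell after cyclic loess, and 2 rose and 3 fell after quantile normalization), with a list mean per array of 8.15 to 8.25 after SP600125 and 8.28 to 8.35 after DMSO, and only S100b at or below background. Of 10 markers of fibroblasts and endothelium 4 fell, with Pecam1 and Tek at or below background. Of 10 markers of the oligodendrocyte lineage 5 fell, and 3 after cyclic loess, with Mog, Mag and Cspg4 at or below background. Of 8 markers of microglia and macrophages 4 rose, but 1 after cyclic loess or quantile normalization, with 6 of the 8 at or below background. Of 9 neural progenitor markers 3 fell. Of 8 markers of glutamatergic neurons 1 fell and 2 rose, and 2 fell with no rise called by limma after either normalization. The marker that fell was Slc17a6, the vesicular glutamate transporter VGLUT2, which averaged 9.05 ± 0.31 after SP600125 and 9.90 ± 0.19 after DMSO (SD, n = 5 each), a change of −0.845 (SE 0.13, limma adjusted p = 0.000411), larger in size than that of any of the 27 genes except Gabra5. The markers that rose, Slc17a7 (0.22) and Fezf2 (0.27), were among the 5 at or below background. The cultures thus carried transcripts of neurons and of glia. Fibroblast markers were bright too, with mean log2 values of 10.8 for Col3a1 and 10.5 for both Col1a1 and Dcn. In RNA from a whole culture, fewer cells of a type and less RNA per cell cannot be told apart, and the part of cell composition in the changes below was not tested.

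**Figure D3:**
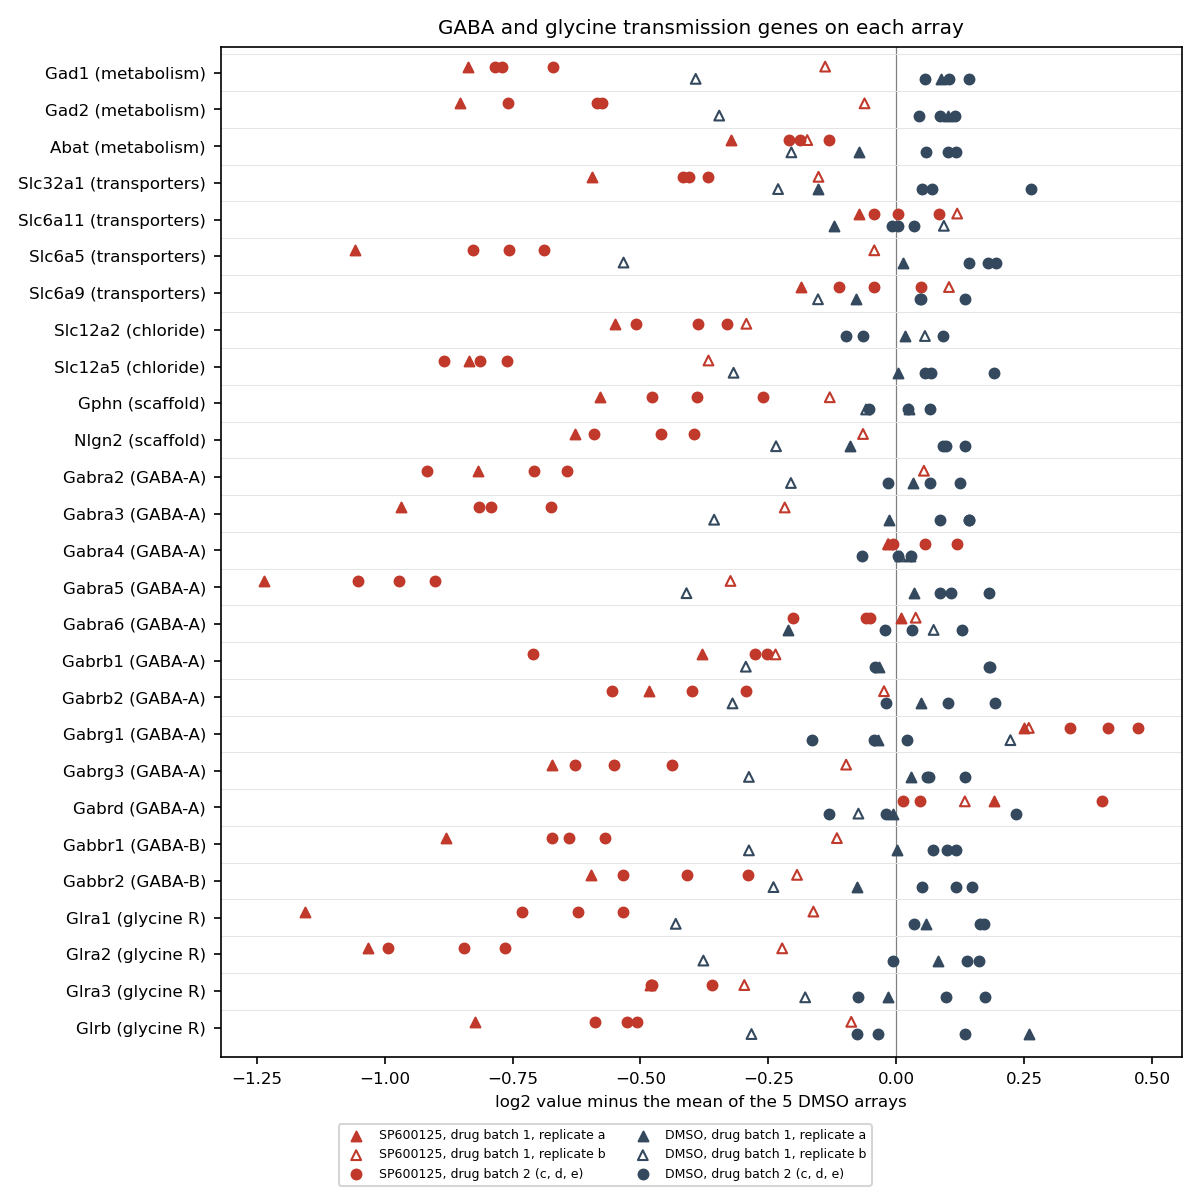
Each row is 1 gene, and each point is the log2 value on 1 array minus the mean of the 5 DMSO arrays (horizontal axis), with SP600125 arrays in red above DMSO arrays in dark blue. Filled points of the 2 groups are apart in most rows, and the open triangles of the b arrays of most rows lie between them, in reverse order in many.

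The promoter windows of 5 genes are shown because they hold the largest fall (Gabra5), the only rise (Gabrg1), a GABA-synthesizing enzyme (Gad2) and the only matches to the AP-1 motif among these genes (Slc12a5 and Slc6a5). AP-1, the factor made of JUN and FOS proteins, is the classical target of JNK. Sequences are from RefSeq (GRCm38.p6), run from 250 bases before to 50 bases after a gene's start, and are written 5′ to 3′ on the gene's strand. Capitals mark the AP-1 motif TGANTCA and the CCAAT box, on either strand (CCAAT or ATTGG).
Gabra5, chr7:57510010-57510309, minus strand: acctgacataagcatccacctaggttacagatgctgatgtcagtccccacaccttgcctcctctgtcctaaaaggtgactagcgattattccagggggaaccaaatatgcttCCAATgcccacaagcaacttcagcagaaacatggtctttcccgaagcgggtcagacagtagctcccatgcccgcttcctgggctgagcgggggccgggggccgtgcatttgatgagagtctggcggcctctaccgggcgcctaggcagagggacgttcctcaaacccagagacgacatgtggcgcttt
Gabrg1, chr5:70842568-70842867, minus strand: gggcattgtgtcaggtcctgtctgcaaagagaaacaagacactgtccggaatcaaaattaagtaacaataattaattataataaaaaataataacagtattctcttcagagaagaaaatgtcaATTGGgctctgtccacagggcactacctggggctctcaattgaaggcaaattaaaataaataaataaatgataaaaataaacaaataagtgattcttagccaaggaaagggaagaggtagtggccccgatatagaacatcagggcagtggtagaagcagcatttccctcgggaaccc
Gad2, chr2:22622077-22622376, plus strand: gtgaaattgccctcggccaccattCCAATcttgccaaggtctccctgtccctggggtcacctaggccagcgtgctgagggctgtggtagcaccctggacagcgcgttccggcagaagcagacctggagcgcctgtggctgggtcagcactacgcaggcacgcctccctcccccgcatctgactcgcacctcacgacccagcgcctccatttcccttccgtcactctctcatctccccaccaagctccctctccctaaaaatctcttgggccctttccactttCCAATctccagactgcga
Slc12a5, chr2:164960596-164960895, plus strand: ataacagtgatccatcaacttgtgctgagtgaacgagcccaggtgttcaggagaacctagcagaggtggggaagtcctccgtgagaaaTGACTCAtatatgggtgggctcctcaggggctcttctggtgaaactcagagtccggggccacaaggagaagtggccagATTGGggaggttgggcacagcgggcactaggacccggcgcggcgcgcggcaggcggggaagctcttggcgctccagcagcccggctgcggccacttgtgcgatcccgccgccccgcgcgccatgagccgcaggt
Slc6a5, chr7:49910049-49910348, plus strand: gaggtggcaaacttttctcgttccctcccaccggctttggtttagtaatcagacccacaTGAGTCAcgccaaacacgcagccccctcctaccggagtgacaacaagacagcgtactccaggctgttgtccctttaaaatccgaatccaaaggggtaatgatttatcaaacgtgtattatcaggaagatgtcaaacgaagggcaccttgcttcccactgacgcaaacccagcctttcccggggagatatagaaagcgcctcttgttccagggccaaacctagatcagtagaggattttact
RefSeq windows were found for 23 of the 27 genes, 31 windows in all, since some genes have several starts and some windows overlap. TGANTCA was in 2 of the 31 windows (6.45%) and in 7.81% of all 32817 windows of that length. Slc12a5 and Slc6a5 each have another window, not shown, without this motif. The CCAAT box was in 11 windows (35.5%), of 10 genes, and in 37.4% of all windows. The cyclic AMP response element TGACGTCA was in none of the 31 windows and in 1.79% of all windows. These shares lie near those of all promoters, and a match of letters is not a binding site.

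The enzymes that make GABA were lower after SP600125. Gad1 had log2 values of 8.30, 9.00, 8.47, 8.36 and 8.37 on SP600125 replicates a to e, against 9.23, 8.75, 9.28, 9.20 and 9.24 on DMSO replicates a to e. It fell by 0.64 on the log2 scale (SE 0.13, limma adjusted p = 0.0019). Gad2, which supplies GABA mainly at nerve terminals, had values of 7.89, 8.68, 8.17, 7.98 and 8.16 after SP600125, against 8.84, 8.40, 8.86, 8.83 and 8.79 after DMSO, in the same order of replicates, which holds for all values below. It fell by 0.57 on the log2 scale (SE 0.13, limma adjusted p = 0.00387). For both genes replicate b was the highest SP600125 array and the lowest DMSO array, so the groups overlapped on these arrays alone. Abat, the mitochondrial transaminase that breaks GABA down in neurons and glia, had 8.70, 8.85, 8.89, 8.81 and 8.83 after SP600125 and 8.95, 8.81, 9.12, 9.08 and 9.14 after DMSO. Its fall of 0.21 on the log2 scale (SE 0.06, limma adjusted p = 0.0149) was the smallest among the genes that fell, and it was not called after cyclic loess normalization (−0.04, limma adjusted p = 0.567) or quantile normalization (−0.10, limma adjusted p = 0.185).

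Of the 4 transporters, 2 fell and 2 did not pass. Slc32a1, the vesicular transporter of inhibitory neurons, had 6.05, 6.49, 6.28, 6.22 and 6.24 after SP600125, against 6.49, 6.41, 6.69, 6.91 and 6.71 after DMSO, and fell by 0.39 on the log2 scale (SE 0.09, limma adjusted p = 0.00411). Slc6a5 (GlyT2), which returns glycine to the terminals of glycinergic neurons, had 7.85, 8.87, 8.15, 8.08 and 8.22 after SP600125, against 8.92, 8.38, 9.09, 9.11 and 9.05 after DMSO, and fell by 0.67 on the log2 scale (SE 0.17, limma adjusted p = 0.00574). On the b arrays it ran the other way, by 0.49 on the log2 scale, the widest such reversal of the 27 genes. Slc6a9 (GlyT1), the glycine transporter known mainly from glia, did not pass, with a change of −0.04 (95% confidence interval −0.19 to 0.11, limma adjusted p = 0.679) and values from 7.90 to 8.19 after SP600125 and from 7.93 to 8.22 after DMSO. Slc6a11 (GAT-3), the GABA transporter of astrocytes, did not pass either, with a change of 0.02 (95% confidence interval −0.12 to 0.16, limma adjusted p = 0.831) and values from 9.55 to 9.75 after SP600125 and from 9.50 to 9.72 after DMSO. After cyclic loess the changes of Slc6a9 and Slc6a11 were both 0.15, with limma adjusted p of 0.0717 and 0.0871. Whether their changes differ from those of Slc32a1 and Slc6a5 was not tested.

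Both chloride cotransporters fell, and for both the SP600125 arrays lay below all DMSO arrays, b arrays included. All SP600125 arrays lay below all DMSO arrays for 4 of the 27 genes and for 16.4% of all genes. Slc12a5 (KCC2), which extrudes chloride from mature neurons and so makes GABA inhibitory, had 7.83, 8.30, 7.85, 7.78 and 7.91 after SP600125, against 8.67, 8.35, 8.73, 8.86 and 8.72 after DMSO. It fell by 0.73 on the log2 scale (SE 0.11, limma adjusted p = 0.000295), to 60.2% of the DMSO level. Slc12a2 (NKCC1), which brings chloride into the cell and is also found in glia, had 7.47, 7.72, 7.69, 7.63 and 7.51 after SP600125, against 8.03, 8.07, 8.11, 7.92 and 7.95 after DMSO. It fell by 0.41 on the log2 scale (SE 0.07, limma adjusted p = 0.00056), to 75.1% of the DMSO level, and after cyclic loess by 0.23 (limma adjusted p = 0.0173).

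The difference between the 2 cotransporters within an array does not move with an overall shift of that array. Slc12a5 minus Slc12a2 was 0.36, 0.58, 0.17, 0.15 and 0.40 on SP600125 replicates a to e, against 0.64, 0.27, 0.62, 0.94 and 0.77 on DMSO replicates a to e. It averaged 0.33 ± 0.18 after SP600125 and 0.65 ± 0.25 after DMSO (SD, n = 5 each). The batch-adjusted change was −0.32, and an exact two-sided permutation test within drug batches did not pass (p = 0.0833 over 120 arrangements, where the smallest possible p was 0.0167). Within the batches, the change was −0.54 for drug batch 2 but 0.01 for drug batch 1. Without DMSO replicate b it was −0.425, with an exact permutation p of 0.0333 over 60 arrangements, the smallest possible there. Leaving out any other single array gave an exact permutation p from 0.05 to 0.167. Without both b arrays the change was −0.47, with an exact permutation p of 0.05 over 40 arrangements, the smallest possible in that setting. These removals were made after the b arrays were seen to stand apart.

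**Figure D4:**
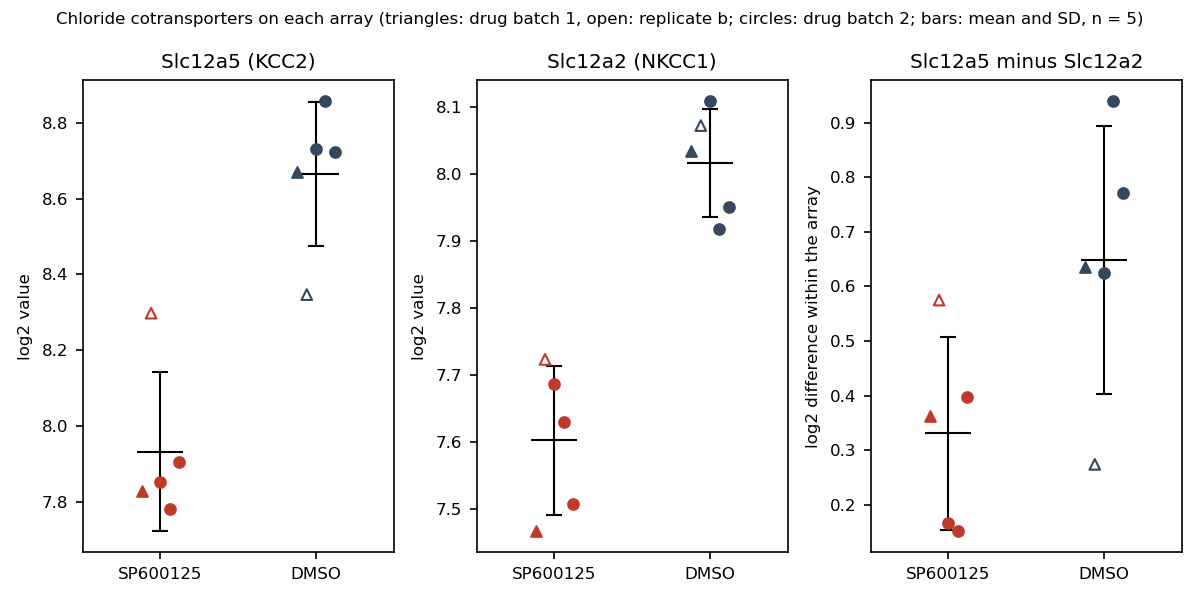
Log2 values of Slc12a5 and Slc12a2 and their difference within each array (vertical axes) are shown for the SP600125 and DMSO arrays, with the mean and SD (n = 5) as bars. Both genes are lower on every SP600125 array than on any DMSO array, while the differences of the 2 groups overlap through DMSO replicate b alone.

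Both postsynaptic organisers of inhibitory synapses fell. Gphn, which encodes gephyrin, had 8.30, 8.75, 8.62, 8.40 and 8.49 after SP600125, against 8.90, 8.82, 8.83, 8.95 and 8.90 after DMSO, and fell by 0.37 on the log2 scale (SE 0.08, limma adjusted p = 0.00277). The fall was 0.20 after cyclic loess (limma adjusted p = 0.041) and 0.23 after quantile normalization (limma adjusted p = 0.0266). Its groups did not overlap on any array. Nlgn2, the neuroligin of inhibitory synapses, had 7.85, 8.41, 8.02, 7.89 and 8.08 after SP600125, against 8.39, 8.24, 8.61, 8.58 and 8.57 after DMSO, and fell by 0.43 on the log2 scale (SE 0.10, limma adjusted p = 0.0049). After cyclic loess Nlgn2 was not called (−0.24, limma adjusted p = 0.0589).

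Of the 10 GABA-A receptor subunits, 6 fell, 1 rose and 3 did not pass. Among the alpha subunits, which shape the response to GABA and to benzodiazepines, Gabra5 had the largest fall of the 27 genes. It had 6.95, 7.86, 7.22, 7.14 and 7.29 after SP600125, against 8.22, 7.78, 8.37, 8.27 and 8.29 after DMSO, a fall of 0.90 on the log2 scale (SE 0.15, limma adjusted p = 0.000534) to 53.7% of the DMSO level. This subunit is known from extrasynaptic receptors of the hippocampus. Gabra3 had 7.57, 8.31, 7.86, 7.72 and 7.74 after SP600125, against 8.52, 8.18, 8.68, 8.62 and 8.68 after DMSO, and fell by 0.69 on the log2 scale (SE 0.13, limma adjusted p = 0.000999). Gabra2, a subunit common in the developing forebrain and at the axon initial segment, had 7.16, 8.03, 7.33, 7.06 and 7.27 after SP600125, against 8.01, 7.77, 8.04, 7.96 and 8.10 after DMSO, and fell by 0.61 on the log2 scale (SE 0.14, limma adjusted p = 0.00397). For each of the 3 genes, the 4 SP600125 arrays other than b lay below every DMSO array. Gabra4 did not pass, with values from 6.49 to 6.62 after SP600125 and from 6.44 to 6.53 after DMSO (change 0.03, 95% confidence interval −0.09 to 0.15, limma adjusted p = 0.701). Gabra6, known from cerebellar granule cells, was below background, with values from 3.16 to 3.40 after SP600125 and from 3.15 to 3.49 after DMSO, and did not pass (change −0.05, limma adjusted p = 0.577).

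The beta subunits complete the GABA binding site. Gabrb2 had 6.52, 6.98, 6.60, 6.71 and 6.45 after SP600125, against 7.05, 6.68, 6.98, 7.10 and 7.20 after DMSO, and fell by 0.35 on the log2 scale (SE 0.11, limma adjusted p = 0.0169). Its other 2 probe sets had lower means after SP600125 as well, at 5.65 ± 0.24 after SP600125 and 6.05 ± 0.33 after DMSO for one, and 4.37 ± 0.24 after SP600125 and 4.85 ± 0.32 after DMSO for the other (SD, n = 5 each). Gabrb2 was not called after cyclic loess (−0.23, limma adjusted p = 0.0992) or quantile normalization (−0.27, limma adjusted p = 0.0663). Gabrb1 had 4.97, 5.11, 5.07, 4.64 and 5.09 after SP600125, against 5.32, 5.05, 5.53, 5.31 and 5.53 after DMSO, and fell by 0.37 on the log2 scale (SE 0.10, limma adjusted p = 0.0109). Its mean of 5.16 lies below the background level, so the size of its fall is uncertain.

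Of the gamma and delta subunits 1 fell, 1 rose and 1 did not pass. Gabrg3 had 6.26, 6.84, 6.50, 6.31 and 6.38 after SP600125, against 6.97, 6.65, 7.07, 7.00 and 7.00 after DMSO, and fell by 0.48 on the log2 scale (SE 0.11, limma adjusted p = 0.00322). Gabrg1, a gamma subunit known from glia as well as from a few groups of neurons, was the only one of the 27 genes to rise. It had 6.42, 6.42, 6.64, 6.50 and 6.58 after SP600125, against 6.13, 6.39, 6.19, 6.12 and 6.00 after DMSO, a rise of 0.35 on the log2 scale (SE 0.08, limma adjusted p = 0.00304) or 1.27-fold. Every SP600125 array lay above every DMSO array, though SP600125 replicate a exceeded DMSO replicate b by little. All SP600125 arrays lay above all DMSO arrays for 6.65% of all genes. Gabrd, the delta subunit of extrasynaptic receptors, did not pass, with values from 5.52 to 5.90 after SP600125 and from 5.37 to 5.74 after DMSO (change 0.16, 95% confidence interval −0.03 to 0.34, limma adjusted p = 0.146).

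Several of these subunit genes neighbour each other among the protein-coding genes of the mouse genome (RefSeq, GRCm38.p6), and neighbours did not share a direction throughout. On chromosome 5 the order is Gabrg1, Gabra2, Gabra4 and Gabrb1, with Cox7b2 between Gabra2 and Gabra4. Of these, Gabrg1 rose, Gabra2 and Gabrb1 fell, and Gabra4 did not pass. Gabrg3 and Gabra5, neighbours on chromosome 7, both fell. Of the neighbours Gabra6 and Gabrb2 on chromosome 11, Gabrb2 fell and Gabra6 did not pass.

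The GABA-B receptor works as a pair of subunits, of which Gabbr1 binds GABA and Gabbr2 couples to the G protein. Gabbr1 had 8.63, 9.39, 8.94, 8.87 and 8.83 after SP600125, against 9.51, 9.22, 9.61, 9.58 and 9.62 after DMSO, and fell by 0.57 on the log2 scale (SE 0.12, limma adjusted p = 0.00209). Gabbr2 had 8.04, 8.44, 8.35, 8.10 and 8.23 after SP600125, against 8.56, 8.39, 8.75, 8.78 and 8.69 after DMSO, and fell by 0.40 on the log2 scale (SE 0.09, limma adjusted p = 0.0025). Gabbr2 fell by 0.23 after cyclic loess (limma adjusted p = 0.0347) and by 0.25 after quantile normalization (limma adjusted p = 0.0246). For both genes SP600125 replicate b exceeded DMSO replicate b, and the other SP600125 arrays lay below every DMSO array.

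All 4 glycine receptor subunits fell. Glra2, the alpha subunit typical of immature neurons, had 6.57, 7.38, 6.84, 6.61 and 6.76 after SP600125, against 7.68, 7.23, 7.74, 7.60 and 7.76 after DMSO, and fell by 0.77 on the log2 scale (SE 0.14, limma adjusted p = 0.000967). Glra1, the alpha subunit of the adult spinal cord and brainstem, had 6.42, 7.41, 6.95, 7.04 and 6.84 after SP600125, against 7.63, 7.14, 7.61, 7.74 and 7.74 after DMSO, and fell by 0.64 on the log2 scale (SE 0.15, limma adjusted p = 0.00376). SP600125 replicate a, at 6.42, was the lowest of its group, and replicate b, at 7.41, lay above DMSO replicate b. Glrb, the beta subunit that binds gephyrin, had 7.60, 8.33, 7.91, 7.83 and 7.89 after SP600125, against 8.68, 8.14, 8.38, 8.34 and 8.56 after DMSO, and fell by 0.51 on the log2 scale (SE 0.12, limma adjusted p = 0.00511). After cyclic loess Glrb fell by 0.32 (limma adjusted p = 0.0414). Glra3 had 3.02, 3.20, 3.02, 3.14 and 3.02 after SP600125, against 3.48, 3.32, 3.42, 3.67 and 3.60 after DMSO, and fell by 0.42 on the log2 scale (SE 0.07, limma adjusted p = 0.000766). Its arrays did not overlap, but its mean of 3.29 lies below the background level, so the size of its fall is uncertain.

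**Figure D5:**
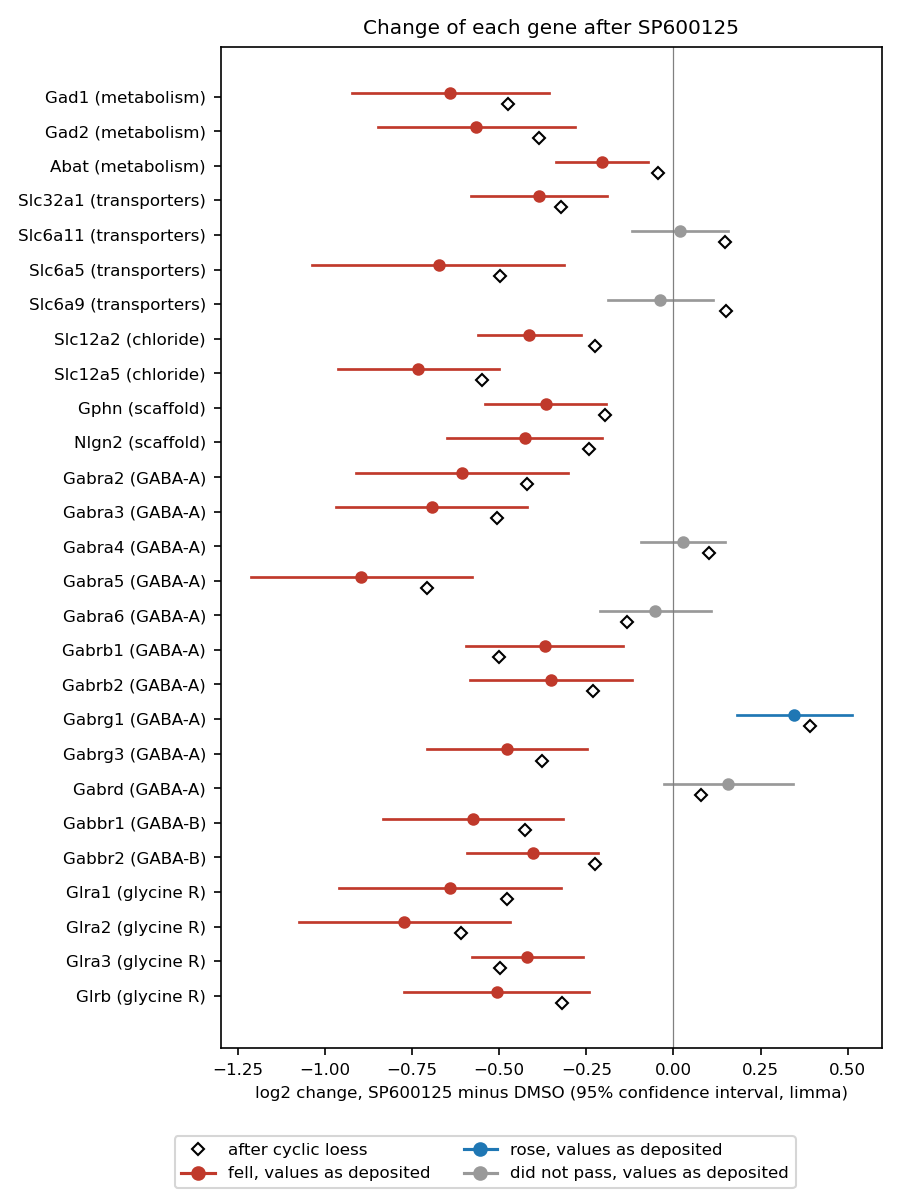
The log2 change of each gene (SP600125 minus DMSO, horizontal axis) is shown with its 95% confidence interval from limma for the values as deposited, and as an open diamond after cyclic loess normalization. The intervals of the 21 genes that fell lie below 0 and that of Gabrg1 above 0, and after cyclic loess most diamonds lie closer to 0.

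Normalization changed the sizes more than the directions. Cyclic loess left 18 falls and 1 rise among the 27 genes, against 17.7% and 9.44% of all genes, and the median change was −0.32. Quantile normalization left 19 falls and 1 rise, against 22.5% and 7.51% of all genes, and the median change was −0.37. Setting the genes against neuron markers had a larger effect. With each array centred on the mean of the 12 neuron markers, an alternative chosen after seeing the data, the median change of all genes was 0.47, and 0.15% of them fell and 69.0% rose. On that scale Gabra5 fell (−0.40, limma adjusted p = 0.00921), 6 of the 27 genes rose and 20 did not pass, among them Gad1 (−0.15, limma adjusted p = 0.294) and Gad2 (−0.07, limma adjusted p = 0.603). The 6 that rose were Gabrg1 (0.84), Gabrd (0.65), Gabra4 (0.52), Slc6a11 (0.51), Slc6a9 (0.46) and Gabra6 (0.44).

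Genes that work with the receptors and transporters were read from lists written with earlier results of these data known. The shares to read these lists against are those above. Of all genes 29.9% fell and 17.0% rose, and of genes above background 47.3% fell and 7.93% rose. Rises were thus more common among genes at or below background, in these lists as over all genes. Over all 105 listed genes 45 fell, 10 rose and 50 did not pass. Of 24 genes that organise inhibitory synapses or carry receptors, 18 fell and 6 did not pass, and 9 fell and 1 rose after cyclic loess. Nsf, the ATPase that recycles the vesicle fusion machinery, averaged 8.96 ± 0.17 after SP600125 and 9.63 ± 0.14 after DMSO (SD, n = 5 each) and fell by 0.67 (SE 0.09, limma adjusted p = 0.000196). Iqsec3, an exchange factor that binds gephyrin, fell by 0.63 (SE 0.13) and Dynll2, a dynein light chain that binds gephyrin, by 0.62 (SE 0.08). Of 13 partners and effectors of the GABA-B receptor 6 fell and 7 did not pass. Among those that did not pass, Kctd12b, Kcnj5, Kcnj6 and Kcnj9 were at or below background. Of the partners and effectors, Gnb5, a G protein beta subunit, fell by 0.55 (SE 0.09), its partner Rgs7 by 0.53 (SE 0.12) and the G protein alpha subunit Gnao1 by 0.49 (SE 0.11). Of these 5 genes Gnao1 had the largest limma adjusted p, 0.003075.

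Of 12 regulators of neuronal chloride, 7 fell, 1 rose and 4 did not pass. Stk39 (SPAK), the kinase that activates Slc12a2, averaged 8.21 ± 0.12 after SP600125 and 8.77 ± 0.06 after DMSO (SD, n = 5 each) and fell by 0.56 (SE 0.07, limma adjusted p = 0.000105). Clcn3, a chloride transporter of vesicles, fell by 0.47 (SE 0.07) and Wnk2, a kinase upstream of Stk39, by 0.43 (SE 0.08). After cyclic loess the changes were −0.28 for Clcn3 and −0.24 for Wnk2, with limma adjusted p of 0.0052 and 0.0134. Of 15 genes of glutamine, GABA and glycine metabolism, 6 fell, 2 rose and 7 did not pass, and 2 fell and 3 rose after cyclic loess. Aldh5a1, which completes the breakdown of GABA after Abat, fell by 0.52 (SE 0.09), Shmt1, which interconverts serine and glycine, by 0.33 (SE 0.06) and Slc38a3, a glutamine transporter, by 0.28 (SE 0.07). Slc38a3 was not called after cyclic loess (−0.17, limma adjusted p = 0.0604).

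Among genes of inhibitory neuron identity, most fate factors did not pass. Of 21 fate factors 3 rose, 3 fell and 15 did not pass (5 rose and 2 fell after cyclic loess), and 10 of the 21 were at or below background. As deposited, neither count exceeded the share of all genes, of which 17.0% rose and 29.9% fell. The largest changes were those of Maf (−0.36, SE 0.07), Dlx1 (0.35, SE 0.09) and Dlx6 (0.31, SE 0.07), and Dlx1 and Dlx6 are among the genes at or below background. Dlx1 was not called after quantile normalization (0.22, limma adjusted p = 0.0524), and after cyclic loess the changes of Dlx1 and Dlx6 were 0.23 and 0.18 (limma adjusted p of 0.0391 and 0.0373). Of 11 peptides and calcium-binding proteins of interneurons 5 fell, 1 rose and 5 did not pass (3 fell and 1 rose after cyclic loess), with falls of 0.63 (SE 0.12) for Tac1, which encodes substance P, of 0.57 (SE 0.11) for Reln (reelin) and of 0.56 (SE 0.15) for the neuropeptide Npy. Npy was not called after cyclic loess (−0.39, limma adjusted p = 0.0531). The 9 further receptor and transporter genes, such as Gabrr1 and Slc6a13, all lay at or below background, where 3 rose and 6 did not pass (1 rose and 1 fell after cyclic loess). Among them Slc6a12, a betaine and GABA transporter, changed by 0.38 (SE 0.09), Gabrr1 by 0.31 (SE 0.08) and Slc6a13 by 0.30 (SE 0.08), and Gabrr1 and Slc6a13 were not called after cyclic loess (0.19 and 0.16, limma adjusted p of 0.0982 and 0.129).

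The size of the response in the 2 drug batches was compared last, since each batch held both treatments. The 27 genes had a median change of −0.52 in drug batch 2, against −0.29 in drug batch 1. Over all genes the medians were −0.049 and −0.006. Within drug batch 1, the median difference of the 27 genes was −0.57 between the a arrays and 0.14 between the b arrays. Of the 27 changes 24 were lower in drug batch 2, a count not taken over all genes. In drug batch 2 all SP600125 arrays lay below all DMSO arrays for 22 of the 27 genes, and for 35.1% of all genes. In drug batch 1 the same held for 5 of the 27 genes and for 30.1% of all genes. The difference between batches was not called by limma for any of the 27 genes, nor for any gene of the array (0.0%). At an unadjusted p under 0.05 it stood out for 3 of the 27, Slc12a5, Gabrg1 and Nlgn2, and for 9.29% of all genes. This count rested on single arrays. It was 16 of the 27 without SP600125 replicate a (16% of all genes) and 12 without DMSO replicate a (10.1%). It was 1 without DMSO replicate b (8.14%) or e (9.47%), and 0 without SP600125 replicate b (6.79%). After adjustment limma called no gene in any of these settings. Slc12a5 changed by −0.92 in drug batch 2 and −0.45 in drug batch 1, a difference of −0.48 (SE 0.18, limma adjusted p = 0.519). Gabrg1 changed by 0.47 in drug batch 2 and 0.16 in drug batch 1, and the batch 1 value of each gene includes the b arrays.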

How the data were processed

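Total RNA from 5 SP600125-treated and 5 DMSO-treated neuron samples was measured on Affymetrix whole-transcript arrays. The authors deposited 1 table of log2 values per probe set. The submitters' processing notes name oligo 1.14.0. How the background was corrected and the values normalized and summarized is not given in the sources used, and the log2 scale was read from the values, which run from 1.90 to 13.8. Of 35556 probe sets, 21789 carried 1 gene symbol, 1621 several and 12146 none. Probe sets with 1 symbol gave 19938 genes, each represented by the probe set with the highest mean.

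SP600125 was compared with DMSO with limma 3.58.1 (R 4.3.3), with terms for treatment and drug batch, and p-values were adjusted by the Benjamini-Hochberg method over all genes. The method was checked on simulated data. The difference between Slc12a5 and Slc12a2 was tested by an exact two-sided permutation within drug batches (Python 3.11.15). The 27 genes and all lists were chosen with earlier results of these data known. Every array value was given for genes past the threshold, and up to 3 genes with the largest changes past it were named from each pathway list. No counts underlie array values, and the number of arrays limits the precision. Alternatives were other normalizations and centrings, no batch term, a replicate block, array weights, a variance trend, the mean of a gene's probe sets, a background filter, each drug batch alone and leaving out arrays.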

Additional observations from a re-analysis of the deposited data

Results flagged for a closer look

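Within a group of 5 arrays, a single value was marked where its gap to the nearest other value took up more than 0.71 of the group's range, Dixon's critical value at 95%. Chance marks about 1 in 20 groups, and 11 of the 54 groups (27 genes in 2 treatments) were marked, 10 of them through a b array. Genes measured on the same arrays are not independent.

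On SP600125 replicate b, 3 genes were marked as high. Gad1 was at 9.00 there, with the other SP600125 arrays at 8.30 to 8.47. Slc12a5 was at 8.30, with the others at 7.78 to 7.91, and Gabra2 was at 8.03, with the others at 7.06 to 7.33.

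On DMSO replicate b, 7 genes were marked as low. Gad1 was at 8.75, with the other DMSO arrays at 9.20 to 9.28, and Gad2 was at 8.40, with the others at 8.79 to 8.86. Slc6a5 was at 8.38, with the others at 8.92 to 9.11, and Gabra5 was at 7.78, with the others at 8.22 to 8.37. Gabrg3 was at 6.65, with the others at 6.97 to 7.07. Gabbr1 was at 9.22, with the others at 9.51 to 9.62, and Glra1 was at 7.14, with the others at 7.61 to 7.74. On DMSO replicate c, Gabra4 was at 6.44, with the others at 6.51 to 6.53, a gap of little size.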

How the results depend on the processing

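Of the 27 genes, 22 were called. Leaving out 1 array at a time gave 22 to 23 calls, against 38.5% to 48.6% of all genes, and a median change of −0.49 to −0.38. The extra call was Gabrd without DMSO replicate d. Drug batch 1 alone, with 2 arrays a group, gave 0 calls, and centring on 12 neuron markers, chosen after seeing the data, gave 7. That centring turned the sign of 12 changes where a call was made on either scale: Abat (0.29), Slc32a1 (0.11), Slc6a9 (0.46), Slc12a2 (0.08), Gphn (0.13), Nlgn2 (0.066), Gabra6 (0.44), Gabrb1 (0.12), Gabrb2 (0.14), Gabrg3 (0.016), Gabbr2 (0.089) and Glra3 (0.074). It raises every gene by the mean loss of the markers. Calls over all genes split into 3389 higher and 5962 lower as deposited, 1882 and 3537 after cyclic loess, 1497 and 4494 after quantile normalization, 1500 and 8602 centred on the median of all probe sets, which moved the median of all genes to −0.13, and 4455 and 5052 centred on the median of named genes. The difference between Slc12a5 and Slc12a2 ran from −0.425 to −0.245 when 1 array was left out. Same-letter replicates did not deviate together (correlations from −0.208 to 0.101, with 1 of 5 letters matching its own best), so the letters were not taken as pairs. A replicate block gave 22 calls, against 41.4% of all genes. For the Slc12a5 difference the replicate block gave −0.318 with an exact sign-flip p of 0.188 (32 arrangements). Values below background, as for Gabra6, Gabrb1 and Glra3, limit how well a change can be sized.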
